A study of Caenorhabditis elegans with 2 samples.

Results

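Intron binding of UNC-62 on the autosomes was described from chromatin immunoprecipitation and sequencing (ChIP-seq) peak lists of whole L4 larvae of Caenorhabditis elegans. The sites were the 620 peaks, of 30000 in the list made from pooled replicates, that met 4 conditions. They lay on an autosome and had a pooled signal value of at least 14. They overlapped by 1 bp or more a peak in the list of each replicate, and the summit lay inside a protein-coding gene but in no exon of one. Summits near the start of a protein-coding transcript, within 1000 bp on its upstream side or 200 bp on its downstream side, were left out as promoter summits. Signal values and replicate overlap chose these sites, so both are given below as descriptions, without a test. The study had 1 group of 2 biological replicates and no second condition. All larvae were of strain OP602, a transgenic line in which a GFP-FLAG tag is fused to the C-terminus of UNC-62 (an insertion aimed at unc-62), and both sexes were pooled. Every worm thus carried the tagged protein, and untagged worms were not analysed here. The labels give unc-62 under antibody and do not say whether the tag or the protein was precipitated. Whole animals mix all tissues, so a strong site in few cells and a weak site in many cells cannot be told apart.

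UNC-62 is the worm member of the Meis/Homothorax family of homeodomain proteins of the TALE class. Such proteins bind DNA together with PBC-class partners, such as CEH-20 in the worm, and often with Hox proteins, at sequences that contain the Meis core TGACAG. In C. elegans, UNC-62 acts in embryonic patterning, in the migration of Q neuroblast descendants and in the intestine, where it is needed for vitellogenin expression. Most worm introns are very short, and the long ones often hold enhancers or alternative promoters, which makes the intron a natural class of site to look at.

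Windows of 8 sites, each reaching 100 bp to either side of the summit, show what the strongest intron sites look like in sequence. The first group, which carries the Meis core, consists of the 4 strongest such sites that could be shown. They lie at chrIII:12612558-12612758 in Y111B2A.12, chrII:14044248-14044448 in daf-5, chrII:5955820-5956020 in casy-1 and chrIII:10905266-10905466 in unc-119. The second group carries GAGAGA without TGACAG, at chrIII:8800097-8800297 in zfp-1 and chrV:19529269-19529469 in Y43F8B.2. The third carries neither, at chrIV:8587112-8587312 in catp-7 and chrIV:8527720-8527920 in pkg-2. All are the plus strand of WBcel235 (ce11) from RefSeq, of equal length and free of annotated exons. Capitals mark each match to TGACAG or GAGAGA, or to their reverse complements CTGTCA and TCTCTC.
Y111B2A.12: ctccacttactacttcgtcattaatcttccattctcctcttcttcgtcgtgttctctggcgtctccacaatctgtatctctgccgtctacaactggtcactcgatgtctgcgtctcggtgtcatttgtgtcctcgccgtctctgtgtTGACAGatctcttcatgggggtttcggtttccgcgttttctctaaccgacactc
daf-5: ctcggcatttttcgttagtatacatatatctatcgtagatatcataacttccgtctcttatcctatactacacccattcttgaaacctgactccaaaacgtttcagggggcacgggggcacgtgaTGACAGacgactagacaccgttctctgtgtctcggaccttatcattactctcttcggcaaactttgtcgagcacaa
casy-1: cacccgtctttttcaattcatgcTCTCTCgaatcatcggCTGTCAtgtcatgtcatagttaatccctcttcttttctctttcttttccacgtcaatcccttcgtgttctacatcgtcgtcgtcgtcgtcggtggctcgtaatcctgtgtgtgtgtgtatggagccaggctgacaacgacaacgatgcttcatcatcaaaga
unc-119: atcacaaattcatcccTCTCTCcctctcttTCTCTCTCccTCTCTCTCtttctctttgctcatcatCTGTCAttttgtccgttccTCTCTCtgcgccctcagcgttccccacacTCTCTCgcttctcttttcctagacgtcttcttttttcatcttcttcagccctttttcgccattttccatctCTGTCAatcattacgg
zfp-1: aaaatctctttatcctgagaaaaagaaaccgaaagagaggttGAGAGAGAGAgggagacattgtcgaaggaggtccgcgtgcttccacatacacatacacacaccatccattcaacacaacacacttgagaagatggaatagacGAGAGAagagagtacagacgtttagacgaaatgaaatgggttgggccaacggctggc
Y43F8B.2: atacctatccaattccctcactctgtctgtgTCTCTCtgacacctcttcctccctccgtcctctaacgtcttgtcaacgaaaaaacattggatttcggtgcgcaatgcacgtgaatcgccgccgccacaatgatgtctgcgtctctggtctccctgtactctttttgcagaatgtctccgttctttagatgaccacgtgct
catp-7: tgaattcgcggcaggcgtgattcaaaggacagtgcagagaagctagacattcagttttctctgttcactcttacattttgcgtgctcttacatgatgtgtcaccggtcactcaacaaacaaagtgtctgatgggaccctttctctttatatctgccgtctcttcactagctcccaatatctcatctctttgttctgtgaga
pkg-2: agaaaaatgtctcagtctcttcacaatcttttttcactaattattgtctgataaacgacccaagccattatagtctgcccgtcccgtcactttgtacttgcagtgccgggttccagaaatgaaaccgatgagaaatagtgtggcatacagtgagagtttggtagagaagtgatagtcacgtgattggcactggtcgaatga
The window of unc-119 held 2 Meis cores among 7 GAGAGA matches, all read on the minus strand. That of casy-1 held 1 of each, beside a CA run of 12 bp. In daf-5 the Meis core lay from 14044373 to 14044378, and in Y111B2A.12 from 12612705 to 12612710.

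The rule removed most intron peaks at the low end of signal. Of 24146 autosomal pooled peaks, 5621 had their summit in an intron, and 620 of these met the signal and replicate conditions, which is 11.0% of the intron peaks. Over all autosomal pooled peaks the share was 12.9%. Introns had the lowest share of the position classes, as it was 12.1% in exons, 13% in the remaining sequence and 14.7% in promoters. Of 1244 intron peaks with a signal of 14 or more, 49.8% (95% exact interval 47 to 52.7%) overlapped a peak of both replicates. Over all autosomal peaks of that signal the share was 52.7%, and in promoters it was 54.3% (52.1 to 56.5%). The share rose with signal by the rule's own measure. It was 35.3% for intron peaks of signal 14 to 17, 64.2% for 17 to 20, 82.0% for 20 to 25, 85.4% for 25 to 35 and 15 of 15 at 35 or more. The replicate lists covered 5.53% (replicate 1) and 9.04% (replicate 2) of the autosomes. At the edge of the rule, the weakest sites inside lay in acr-24 (signal 14.039), fos-1 (14.011) and trpp-11 (14.003). Just outside lay peaks in sra-30 (13.974), T04C9.1 (13.964) and K07C5.9 (13.939). The strongest intron peaks without a peak in both replicates lay in ncl-1 (33.17), K01F9.2 (33.12) and pnp-1 (26.76), which were named after their values were seen.

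The word reproducible stands here for overlap of position, and the strength of most sites differed between replicates. Pooled signal ranged from 14 to 94.4 with a median of 17.7, in the authors' units, and 267 of the 620 sites lay between 14 and 17. Only 19 sites overlapped a peak of the short list that the authors kept by irreproducible discovery rate (IDR), a measure of agreement between replicates, a share of 3.06% (95% exact interval 1.85 to 4.74%) against 0.422% of all autosomal pooled peaks. That share was 4.59% (3.43 to 5.99%) of promoter sites, 2.91% of intergenic sites and 0.709% of exon sites chosen by the same signal and replicate conditions. The 19 intron sites overlapped 17 IDR peaks, so they are not all separate. In replicate 1 the 620 sites had a median signal of 9.37 (range 6.62 to 41.5). In replicate 2 their median was 8.11 (range 5.03 to 53.8), and each list is on its own scale. The rank of the overlapping peak was 1000 or better for 94 sites in replicate 1, for 91 in replicate 2 and for 31 in both. Across the 620 sites Spearman's rho between the 2 signals was 0.07, and Pearson's r of the log2 values was 0.25. These sites share the 2 libraries and were selected on both, so the coefficients are descriptions. Summits of the replicates lay closer together than at weaker intron peaks. The rule chose on pooled signal and overlap, so this distance is not independent of it and is a description. The median distance between replicate summits was 75.5 bp (95% interval 67 to 85), against 166 bp (149 to 186) at the 402 other autosomal intron peaks with a peak in both lists. It was 73 bp at promoter sites and 69 bp at intergenic sites of the same rule, within the interval of the intron sites.

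**Figure D1:**
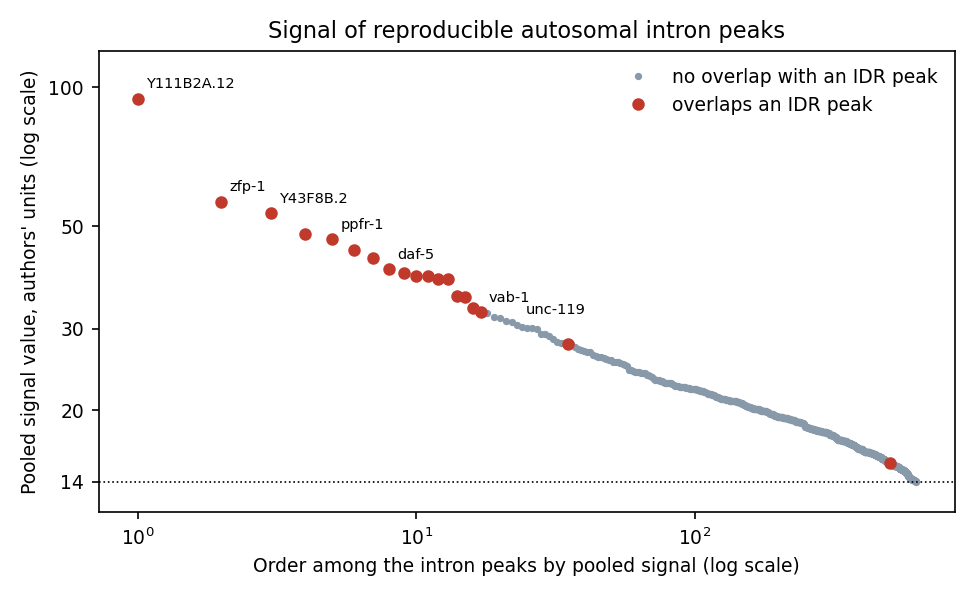
Pooled signal value of each of the 620 intron sites against its order by signal, both axes on log scales, with the rule's threshold of 14 as a dotted line. Red points are the 19 sites that overlap an IDR peak, and signal falls from 94.4 in Y111B2A.12 to 14.

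**Figure D2:**
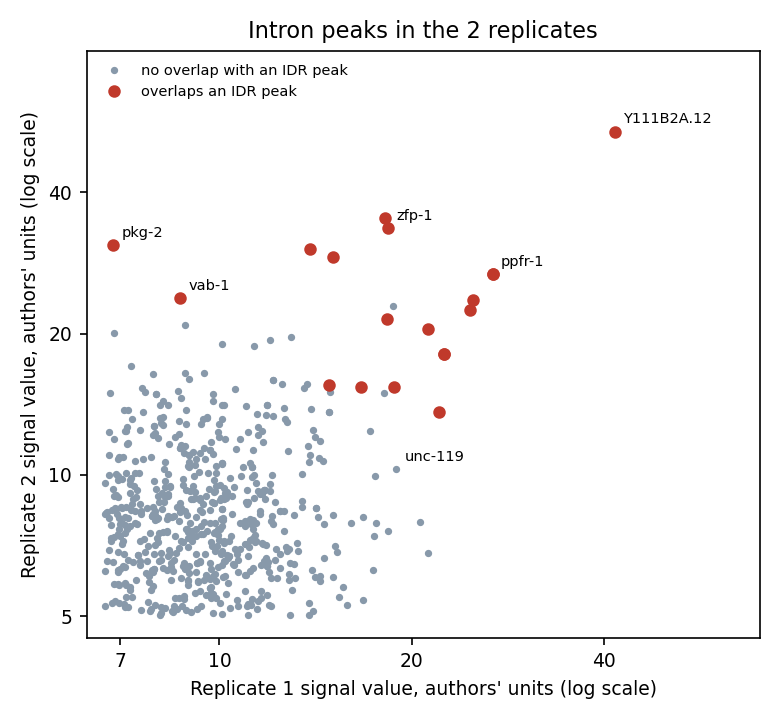
Signal of the overlapping peak in replicate 1 (x axis) and in replicate 2 (y axis) for the 620 intron sites, on log scales, with the 19 that overlap an IDR peak in red. The main cloud shows no slope (Spearman rho 0.07), and pkg-2 and vab-1 are strong in replicate 2 and weak in replicate 1. The replicate summits lay 340 bp apart for pkg-2 and 53 bp apart for vab-1.

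The strongest intron site lay in Y111B2A.12, a gene of no named function, on chromosome III from 12612470 to 12612845, and stood far above the next. Its signal was 94.4 in the pooled list, 41.5 in replicate 1 (rank 2) and 53.8 in replicate 2 (rank 3). It lay in intron 4 of 7, an intron of 7076 bp, and its window is the one printed above with the Meis core 49.5 bp from the summit. A second site in the same intron, 1200 bp away, had a pooled signal of 28.1 and also held TGACAG.

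The 15 strongest sites included 1 each in zfp-1 and let-526, both on the chromatin list, where 3 of 24 intron peaks, or 12.5%, were sites against 11.0% of all intron peaks. The site in zfp-1, which encodes the worm AF10 homolog, lay on chromosome III from 8800009 to 8800384 with signals of 56.6 (pooled), 18.4 (replicate 1) and 33.5 (replicate 2). Its window held 4 GAGAGA matches and no TGACAG. The site in let-526, which encodes an ARID subunit of the SWI/SNF complex, had signals of 42.7 (pooled), 24.7 (replicate 1) and 22.5 (replicate 2), and a weaker site lay in the next intron (pooled signal 24.4). The site in egl-27, a gene outside that list which encodes an MTA-family protein related to NuRD subunits, had signals of 35.3 (pooled), 14.9 (replicate 1) and 15.5 (replicate 2), and 2 further sites lay in that gene. The strongest site of each of these 3 genes was high in both replicates, with ranks no worse than 324. The weaker let-526 site had ranks of 3617 (replicate 1) and 471 (replicate 2).

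The other sites of the top 15 lay in genes of varied function. In ppfr-1, which encodes a regulatory subunit of protein phosphatase 4, the strongest site had signals of 46.8 (pooled), 26.7 (replicate 1) and 26.8 (replicate 2). In pqn-41, a glutamine- and asparagine-rich protein needed for death of the male linker cell, they were 48, 24.9 and 23.5 in the same order. In catp-7, a cation-transporting ATPase gene, they were 39.1, 18.3 and 21.5. These sites were among the best of both lists. By contrast, the values differed at the site in pkg-2, which encodes a cGMP-dependent protein kinase. Its overlapping peak had a signal of 6.82 in replicate 1 (rank 14088) and of 30.8 in replicate 2 (rank 24). The summits of these peaks lay 340 bp apart, so the values need not describe the same position. The Mediator gene mdt-26 (13.8 and 30.3) and the cuticlin-like gene cutl-18 (15 and 29.1) also had higher values in replicate 2. Y43F8B.2 (pooled signal 53.4), T28F4.1 (38.4) and the collagen gene col-159 (35.2) completed the list, together with 2 sites in daf-5. Of the 15, the lowest GC content was 35.8%, in col-159, and the highest 59.7%, in T28F4.1.

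The 620 sites lay in 521 host genes, and 69 of these held more than 1 site. One site each was found in 452 genes, and 168 sites lay in genes with several. Of 3487 autosomal genes with any pooled intron peak, 14.9% held a site. Long genes did so more often: the share was 10.3% of genes under 2000 bp, 25.9% of those of 10000 to 20000 bp and 39.1% of those of 20000 bp or more. Per peak the range was narrower, from 9.57 to 12.9% of the intron peaks of a length class. Sites are not all separate from each other, since 131 overlapped another pooled peak and the 620 rested on 601 peaks of each replicate.

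The genes with most sites were ppfr-1 and daf-16, with 6 each, a count that includes sites on a shared replicate peak. In daf-16, the FOXO transcription factor at the end of the insulin pathway, sites lay in 2 introns of 12401 and 7676 bp, spread over 12581 bp. Their pooled signals were 22.8, 20.4, 18.5, 17.7, 15.7 and 14.1, so none was among the 15 strongest. The signal of their peaks was higher in replicate 1, from 9.82 to 15.2, than in replicate 2, from 5.46 to 9.26, though the scales of these lists differ. The daf-16 sites of 15.7 and 14.1 lay on the same peak of each replicate. In ppfr-1 the sites spread over 10446 bp in introns of 10404 and 5374 bp, and the strongest pair lay 215 bp apart on the same peak of each replicate. The ppfr-1 sites with pooled signals of 23.05 and 19.06 likewise shared a peak of each replicate.

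In daf-5, which encodes a Ski/Sno-family protein of the dauer TGF-beta pathway, 4 sites lay in the first intron, which is 14446 bp long. From the gene's 5′ end, their summits stood at 1529, 7956, 11654 and 11891 bp. The pooled signals were 25.5, 39.7, 15.4 and 40.3 in that order. Replicate 1 had values of 17.6, 22.1 and 22.4 and replicate 2 values of 7.91, 13.6 and 18.1, since the last 2 sites share 1 peak in each replicate. Both lists thus rose from the site nearest to the start to the one farthest from it. The Meis core lay in the site at 7956 bp, and GAGAGA lay in both sites of the far pair. Another 4 sites each were found in saeg-1, mig-10 and vhp-1. In mig-10, the sites with pooled signals of 16.9 and 14.98 lay on the same peak of each replicate. The gene saeg-1 encodes a nuclear factor that acts with the kinase EGL-4, mig-10 the worm lamellipodin of cell and axon migration, and vhp-1 a MAP kinase phosphatase. Their strongest sites had pooled signals of 29.2, 22.2 and 18.8.

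**Figure D3:**
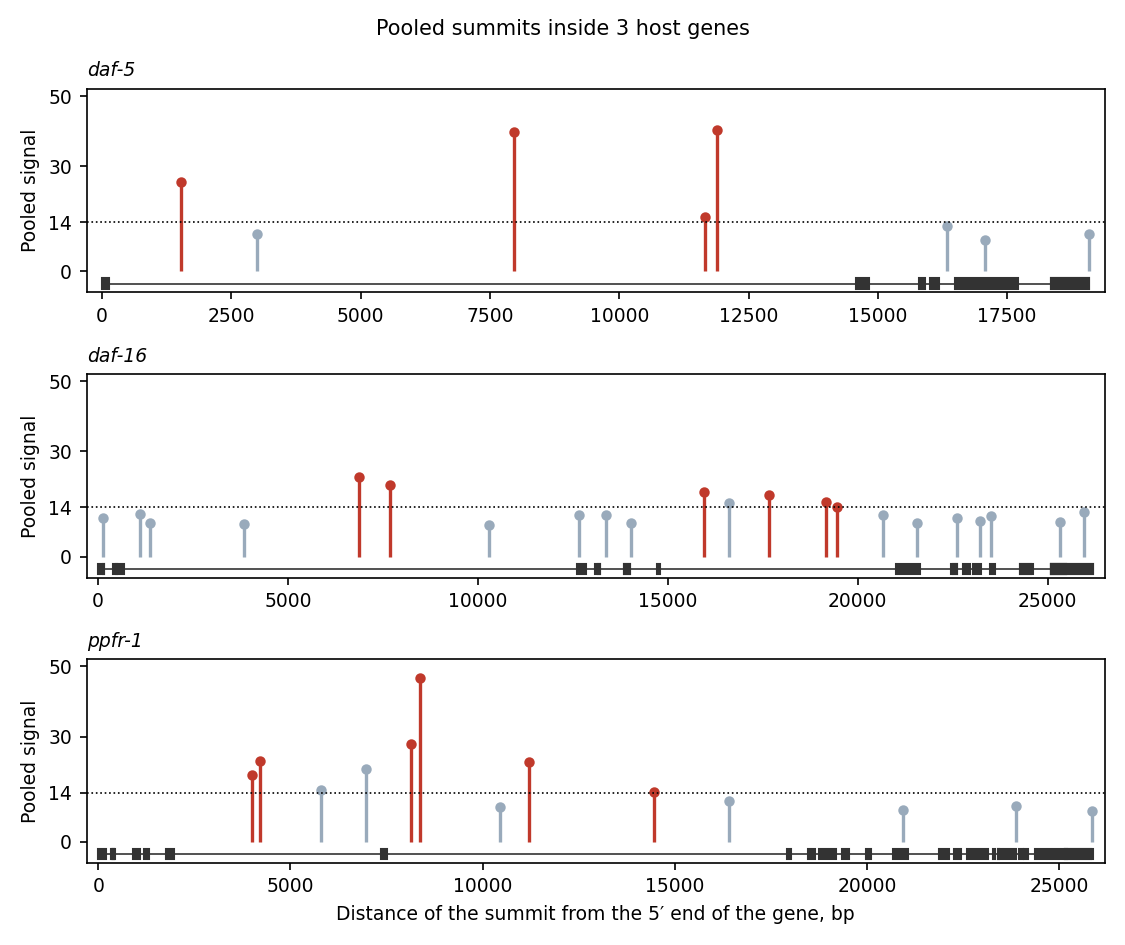
Pooled summits inside daf-5, daf-16 and ppfr-1, by distance from the 5′ end of the gene in bp, with stems to the pooled signal value, exons as black boxes and the threshold of 14 as a dotted line. Red stems are the intron sites (4, 6 and 6) and grey stems all other pooled summits in these genes.

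Long introns held a larger share of the sites than of the other intron peaks. The median length of the host intron was 1232 bp (95% interval 982 to 1522) for the 620 sites and 798 bp (769 to 837) for the 5001 other autosomal intron peaks. An intron of at least 2000 bp held 41.0% of the sites (95% exact interval 37.1 to 45%), against 28.8% (27.6 to 30.1%) of the other peaks and 27.5% of the 22.6 Mb of intron sequence in which a site could lie. The relation with length was not steady. Sites made up 11.9% of peaks in introns under 100 bp, 6.45% (5.11 to 8.0%) in those of 500 to 1000 bp and 17.2% (14.3 to 20.4%) in those of 5000 to 10000 bp. Per Mb of intron sequence, these classes held 39.9, 14.2 and 56.4 sites. A peak is 376 bp wide, so a peak whose summit lies in an intron under 100 bp reaches into the neighbouring exons. In introns of at least 2000 bp sites with a signal of 25 or more made up more of the peaks, from 2.29 to 2.63%, against 0.170 to 0.599% in shorter introns.

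**Figure D4:**
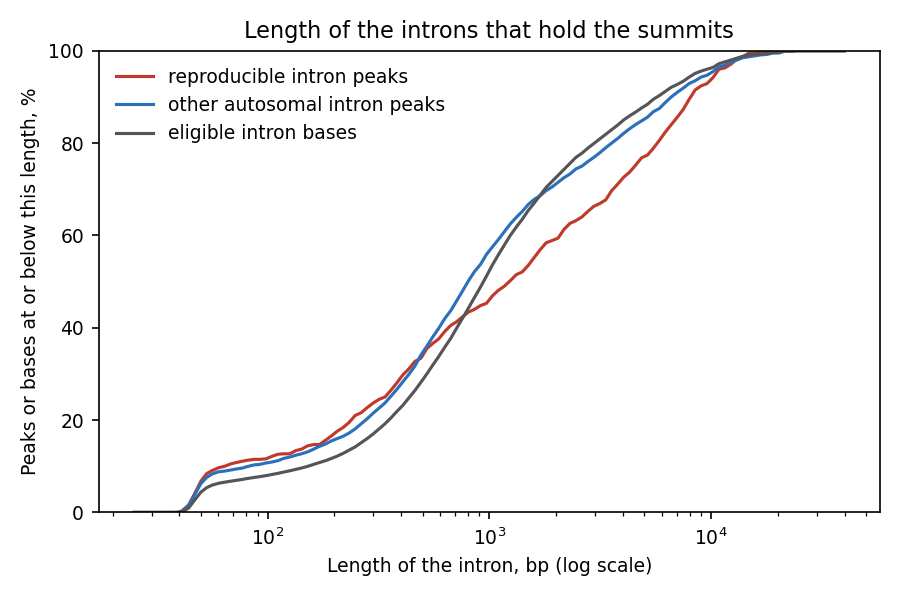
Cumulative share (%) of the 620 intron sites (red), the 5001 other autosomal intron peaks (blue) and the eligible intron bases (grey) at or below each intron length, in bp on a log scale. The red curve lies below the others at lengths plotted from 805 to 12277 bp and crosses them above that, and 41% of the sites lie in introns of at least 2000 bp.

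Over all sites, the first intron was about as common as among the other intron peaks. It held 149 sites, or 24% (95% exact interval 20.7 to 27.6%), against 24.7% (23.5 to 25.9%) of the other peaks and 21.3% of the eligible sequence. The 15 strongest sites had 6 in a first intron, which has an interval of 16.3 to 67.7%, and of the 41 sites with a signal of 25 to 35 there were 15. Within introns of at least 1000 bp, 55.1% of the sites lay in the 5′ part before the midpoint, against 57.8% of the other peaks. The median distance from the summit to the nearest transcript start was 1583 bp (95% interval 1494 to 1768) for the sites and 1548 bp (1508 to 1594) for the others.

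GA repeats were more frequent at the sites, above all at the strong ones. GAGAGA, on either strand and within 100 bp of the summit, was present at 20.8% of the 620 sites (95% exact interval 17.7 to 24.2%), against 11.5% (10.6 to 12.4%) of the other intron peaks. The share was 16.5% at signals of 14 to 17, 13.7% at 17 to 20, 29.8% at 20 to 25, 43.9% at 25 to 35 and 53.3% at 35 or more. Promoter sites chosen by the same conditions had 22.1% and intergenic sites 25.6%, with intervals that overlap that of the intron sites, and exon sites had 12.5% (10.1 to 15.2%). GC content moved with it: its median was 36.3% (95% interval 35.8 to 37.3%) at the sites and 34.8% (34.3 to 34.8%) at the other intron peaks, and 49.8% at the 15 sites of signal 35 or more. Promoter, intergenic and exon sites of the same rule had GC medians of 37.3, 36.8 and 38.8%. Within windows of 42% GC or more, GAGAGA was at 40.6% (32.3 to 49.3%) of the sites and 22.6% (19.5 to 25.9%) of the other peaks. Below 32% GC it was at 5.97 and 6.00%. Intron length moved with it as well, since GAGAGA was at 31.1% of the sites in introns of at least 2000 bp and at 11.3% of those in introns under 500 bp. The part of GC content and of intron length in the GAGAGA share was not tested. Where GAGAGA was present, it lay a median of 33.5 bp from the summit at the sites and 46.5 bp at the other peaks.

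**Figure D5:**
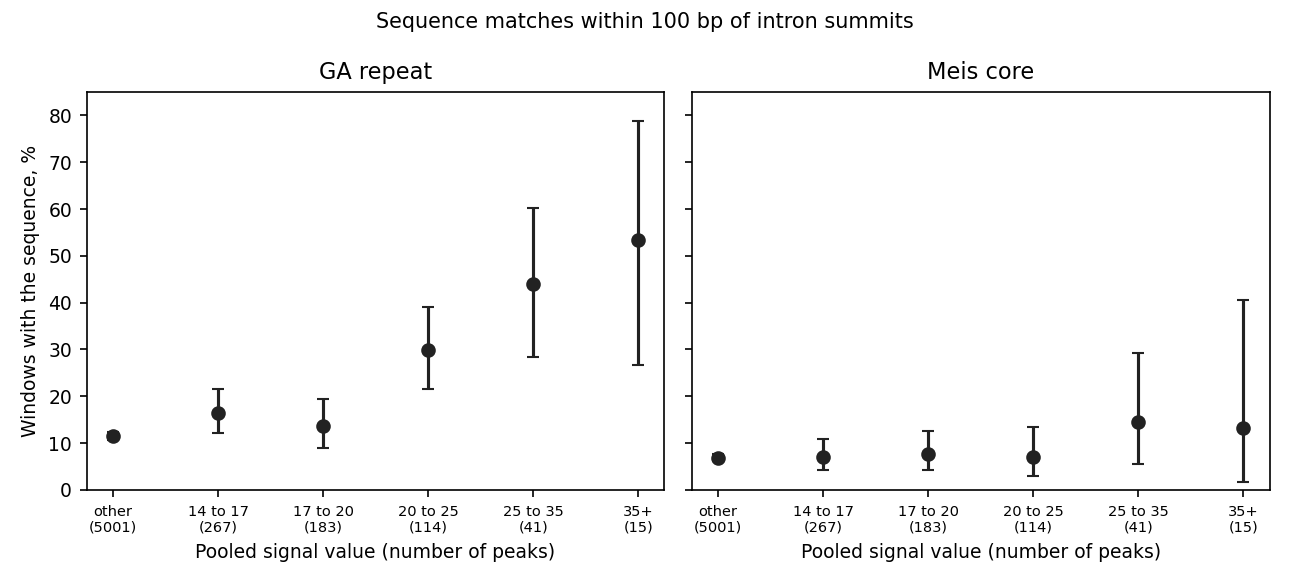
Share of windows (%, with 95% exact intervals) that hold GAGAGA (left) or the Meis core TGACAG (right) within 100 bp of the summit, for the 5001 other autosomal intron peaks and for the 620 sites by pooled signal, with the number of peaks below each point. The GA repeat ranges from 11.5 to 53.3%, and the intervals of the Meis core overlap in all classes.

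The Meis core was no more than slightly more frequent at the sites. TGACAG was within 100 bp of 49 of 620 summits, or 7.90% (95% exact interval 5.90 to 10.3%), against 6.86% (6.17 to 7.59%) of the other intron peaks. The shares at promoter, intergenic and exon sites of the same rule were 7.73, 7.69 and 7.80%. It was at 2 of the 15 sites of signal 35 or more and at 6 of the 41 of signal 25 to 35, or 14.6% (5.57 to 29.2%). One site, in unc-119, held 2 matches and the other 48 held 1. The matches were not close to the summits, with 49% (34.4 to 63.7%) of the nearest ones within 50 bp, against 51% (45.6 to 56.4%) at the other peaks. The nearest match lay 1.5 bp from the summit in atgl-1, a triglyceride lipase gene. The next lay in T21D12.7 (9.5 bp), in the nuclear receptor gene nhr-46 (15.5 bp), in the collagen gene col-115 (17.5 bp) and in cls-1 (22.5 bp), which encodes the worm CLASP of microtubules. Their pooled signals ran from 15 to 20.8, all below those of the 15 strongest sites.

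Other sequences of the TALE and Hox context changed little with selection. The Hox-PBC sequence TGATNNAT was at 16.1% (95% exact interval 13.3 to 19.3%) of the sites and 14.4% (13.5 to 15.4%) of the other intron peaks, and TGATTG, which can overlap it, at 14.5 and 11.5%. Both TGACAG and TGATNNAT were in the window at 8 sites, or 1.29%, against 1.24%. The GATA sequence GATAAG was at 7.90 and 6.92%. ACACAC and E-boxes were more frequent at the sites and runs of A less frequent, with intervals that do not overlap. CA runs of 10 bp or more were at 1.77% (0.889 to 3.15%) of the sites. They were at 1.10% (0.830 to 1.43%) of the other peaks, and these intervals overlap. ACACAC was at 12.4% (9.93 to 15.3%) of the sites and 7.92% (7.18 to 8.70%) of the others, CANNTG at 58.2% (54.2 to 62.1%) and 51.1% (49.7 to 52.5%), and AAAAAA at 55.3% (51.3 to 59.3%) and 69.0% (67.7 to 70.2%). At promoter, intergenic and exon sites of the same rule, ACACAC was at 12.6, 15.2 and 6.95%, and CANNTG at 56.3, 52.1 and 68.5%. In the same order, AAAAAA was at 58.8, 60.2 and 39.3%. TTTCAG, the usual end of a worm intron, was at 33.4% of the intron sites and 37.5% of the other intron peaks. Sites also overlapped less of the sequence that RefSeq gives in lower case as repetitive, with a median of 26.9% of the window against 35.8% at the other peaks and 54.7% of all eligible intron bases.

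The target gene itself held no intron site. Of the 11 pooled summits inside unc-62 on chromosome V, 8 were in promoters, 2 in exons and 1 in an intron. That intron peak had a signal of 11.0 and no peak in both replicates. The strongest peak of the whole pooled list lay in an unc-62 exon (rank 1, signal 105.1). An unc-62 promoter peak stood at rank 4 (72.05), and both overlapped a peak of each replicate. The tag insertion was aimed at this gene, and its part in these values was not tested. The Hox and TALE lists also held no intron site, with 6 and 2 pooled intron peaks to begin with. Of 34 intron peaks in other homeobox and Pax genes, 1 was a site, in npax-1 (pooled signal 19.3). These lists were drawn up with earlier results of these data known, and each count is read against the 11.0% of intron peaks and 14.9% of host genes above.

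Receptors and adhesion proteins of axon guidance had sites in 12 of 32 autosomal genes with an intron peak, or 37.5%, and 18 of their intron peaks, or 16.1%, were sites. The median length of these 32 genes was 14044 bp, in the class where 25.9% of all genes held a site. The strongest site lay in vab-1, the ephrin receptor gene, with signals of 32.5 (pooled), 8.69 (replicate 1) and 23.8 (replicate 2), so it stood far higher in replicate 2 (rank 58) than in replicate 1 (rank 6116), and a second site in the gene had a pooled signal of 18.1. The site in casy-1, which encodes calsyntenin, had signals of 31 (pooled), 14.9 (replicate 1) and 15 (replicate 2), and holds the Meis core in the window printed above. Its other site had a pooled signal of 21.2. Netrin receptor genes followed, with unc-40 at a pooled signal of 24.2 and unc-5 at 22.6. The perlecan gene unc-52 held 2 sites (20.9 and 15.3), of which the stronger had a Meis core, and unc-73, the Trio homolog, held 3 (18.7, 17.9 and 14.6). Others were the plexin gene plx-2 (20.5), the cadherin genes cdh-4 (19.6) and cdh-3 (18.3) and the contactin gene rig-6 (17.7). The semaphorin gene smp-1 (16.6) and unc-53 (14.2 and 14.1) completed the list. The 2 unc-53 sites lay on the same peak of each replicate.

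In the list of Wnt signalling and neuroblast migration, 3 of 13 genes with an intron peak, or 23.1%, held a site, and 5 of 32 intron peaks, or 15.6%, were sites. The Nemo-like kinase gene lit-1 had 3 of them (pooled signals 20.1, 19.1 and 15.7), and cam-1 (15.4), a ROR-family receptor, and the Frizzled gene lin-17 (14.3) had 1 each. The strongest of these, in lit-1, was number 168 of the 620 sites by pooled signal.

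Insulin and nutrient signalling genes had 12 sites among 42 intron peaks, or 28.6%, of which daf-16 gave 6, and held them in 5 of 13 genes, or 38.5%. The daf-16 count includes the pair on shared replicate peaks described above. The site in skn-1, the Nrf-family stress factor, had signals of 28.9 (pooled), 13.7 (replicate 1) and 15.6 (replicate 2). The autophagy regulator hlh-30 held 3 sites in its second intron of 8295 bp, with pooled signals of 25.4, 21 and 15.3. The kinase gene aak-1 (19.9) and the TORC2 gene rict-1 (15.8) held 1 each. TGF-beta genes had 5 sites among 12 intron peaks, or 41.7%, in 2 of 6 genes, and 4 of these were in daf-5. The other was in the Smad gene daf-14, with signals of 27.8 (pooled), 8.83 (replicate 1) and 20.9 (replicate 2). Its replicate summits lay 296 bp apart. The window of the daf-14 site had 15 GAGAGA matches and 1 Meis core.

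Genes of synapses and excitability had sites in 6 of 27 genes, or 22.2%, and 7 of 71 intron peaks were sites, or 9.86%. The site in unc-119, a lipid-binding trafficking protein gene, had signals of 30.6 (pooled), 18.9 (replicate 1) and 10.3 (replicate 2). The muscarinic receptor gene gar-3 (24.9) and the SNAP-25 gene ric-4 (20.4) stood higher in replicate 1, at ranks 41 and 107, than in replicate 2, at 11776 and 14808. The cholinergic locus had sites in both cha-1 (18.1) and unc-17 (15.7 and 14.1), and the potassium channel gene unc-103 had 1 (14.1). The 2 unc-17 sites lay on the same peak of each replicate.

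The remaining lists had from 1 to 6 sites each. Muscle genes had 3 sites among 47 intron peaks, or 6.38%, and held them in 3 of 20 genes, or 15%, namely pat-10, a troponin C gene (22.2), pat-4, the integrin-linked kinase gene (16.2), and unc-22, the twitchin gene (15.9). Epidermal genes had 4 of 33, or 12.1%, and held them in 3 of 12 genes, or 25%, namely mup-4 (15.7), the cell fusion gene eff-1 (15 and 14.1) and the Grainyhead gene grh-1 (14.7). Genes of the vulva and of EGF, Ras and Notch signalling had 6 of 40, or 15%, and held them in 6 of 13 genes, or 46.2%, led by the ERK gene mpk-1 (23.6) and followed by nhr-67 (17.8), sos-1 (15.8), egl-43 (15.6), lin-12 (14.8) and fos-1 (14). The heterochronic list had 1 of 7, or 14.3%, in 1 of 2 genes, the Period homolog lin-42 (17.2). Chromatin genes had their 3 sites in 2 of 13 genes, or 15.4%, zfp-1 and let-526 as described.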

How the data were processed

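UNC-62 was profiled by ChIP-seq in 2 biological replicates of 1 group. Per the deposited readme texts, the authors made a peak and background list from each replicate and from both pooled, each against a control alignment not analysed here, and an IDR list from these. No aligner, caller or IDR cutoff is named (not given in the sources used here). Signal, the deposited value (in column 7 on the authors' scale), ranks peaks within a list, and depth is unknown. The deposited q-value column is below 0 at most pooled peaks, was therefore treated as a score, and was not used. Only the ce11 lists were used.

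Summits were annotated with Ensembl release 115 (WBcel235, the same assembly as ce11), and sequence came from RefSeq. The host intron was the shortest intron of a protein-coding transcript over the summit. Eligible intron bases were those in which a summit would have met the position conditions. Shares carry 95% exact Clopper-Pearson intervals and medians 95% order-statistic intervals. These count peaks and hold no error between worms. Neighbouring peaks are not independent, and no test was made, since the sites were chosen on signal. Genes named were hosts of the 15 strongest sites, list members, the genes with most sites, the 5 nearest Meis cores and the sites at the edge of the rule. Printed windows had to be free of annotated exons. Sites, sequences and gene lists were chosen with earlier results of these data known. Code was tested on simulated data. Computations used Python 3.11.15, NumPy 2.4.6, SciPy 1.17.1 and matplotlib 3.10.9.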

Additional observations from a re-analysis of the deposited data

How the results depend on the processing

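Alternatives were compared with the 95% interval of each value. Raising the signal threshold to 20 left 170 sites, with 29.4% in first introns, 35.3% with GAGAGA, a median GC content of 39.6% and a median intron of 2655 bp, and lowering it to 10 gave 940 sites. The 19 sites that overlap an IDR peak had 42.1% in first introns, 10.5% with TGACAG, 47.4% with GAGAGA, a median GC content of 49.8% and a median intron of 3919 bp. A wider promoter, of 2000 bp before and 500 bp after a start, left 18.4% in first introns. A window of 50 bp to either side gave 3.23% with TGACAG, 12.7% with GAGAGA and a median GC content of 35.6%, and the whole peak gave 15.5% and 32.1%. Requiring overlap with 1 replicate alone gave 858 to 990 sites. The 620 strongest intron peaks of either replicate's own list had 19.2 to 23.2% with GAGAGA, 7.90 to 8.23% with TGACAG, 25.8 to 27.4% in first introns, and median introns of 1077 to 1287 bp, and 27.9 to 36.8% of them overlapped a site. The cause of these shifts was not tested. Overlap of at least 50% of the pooled peak (537 sites) and leaving out exons of non-coding genes and pseudogenes (595 sites) kept the 6 values within their intervals or within 1.5 times the count. No paired analysis was possible because there was 1 group.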

Other observations

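Genes for small structural RNAs lay near a few of the sites. A tRNA, snoRNA, snRNA, rRNA or miRNA gene was within 500 bp of 21 of 620 summits, or 3.39% (95% exact interval 2.11 to 5.13%), against 1.78% (1.43 to 2.19%) of the other autosomal intron peaks. By kind, snoRNA genes lay near 11 sites, or 1.77% (0.889 to 3.15%), against 0.660% (0.455 to 0.925%) of the other peaks. Genes for tRNA lay near 9 sites, or 1.45% (0.666 to 2.74%), against 0.700% (0.488 to 0.972%). Both pairs of intervals overlap. No miRNA gene lay near a site, which allows a share of up to 0.593% by the exact interval, against 0.260% of the other peaks. The strongest sites near a small RNA gene lay in cutl-18 (intron of 322 bp, pooled signal 44.3), pdl-1 (285 bp, 33.3) and ppat-1 (624 bp, 30.3). Each lay in a short intron, beside a snoRNA gene. These genes were named after their values were seen. Summits inside an exon of a non-coding gene or pseudogene made up 4.03% of the sites (2.63 to 5.90%) and 2.22% of the other peaks (1.83 to 2.67%).

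Position along the chromosome differed between sites and other intron peaks. Chromosome II had 137 sites, or 36.4 per Mb of eligible intron sequence, and each of the others had 25.4 to 26.2 per Mb. All intron peaks were also densest there, at 265 per Mb against 241 to 249 on the others. Sites made up 13.7% of the intron peaks of chromosome II and 10.2 to 10.7% of those of the others. The central segment, from 1/3 to 2/3 of the chromosome's length, held 44.4% of the sites (95% exact interval 40.4 to 48.4%), 36.2% of the other intron peaks (34.9 to 37.6%) and 26.5% of the eligible sequence. This held on chromosomes I (52.3 against 36.7%), II (44.5 against 37.3%), III (38.5 against 32.9%) and V (52.5 against 40.7%), and not on IV (32.8 against 33.4%). Another site or promoter, exon or intergenic peak of the same signal and replicate conditions had its summit within 2000 bp of 25% of sites. Most often this was another intron site (14.2%). Some of these neighbours lay on the same replicate peak as the site, as in ppfr-1 and daf-5. Of all sites, 131 overlapped another pooled peak, and the sites rested on 601 peaks of each replicate. The share near the other intron peaks was not computed, so clustering of the sites was not tested.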
